A study of Mus musculus with 8 samples.

Results

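The genes described here are coregulators of the estrogen receptor, the proteins that the hormone-bound receptor recruits to switch transcription up or down. The set was 7 genes chosen by name: Nrip1, Ncoa1, Ncoa2, Ncoa3, Ncor1, Ep300 and Crebbp. All probe sets annotated to these symbols were taken, which gave 20 probe sets for 6 of the 7 genes, out of 18193 genes with a probe set of their own. Ncor1 was not analysed here, because no probe set carried that symbol in the probe annotation used. Nrip1 had 6 probe sets, Ncoa2 and Crebbp 4 each, Ncoa1 3, Ncoa3 2 and Ep300 1. A filter on low levels was passed by 18 of the 20, and those 18 were tested.

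The arrays measured RNA of inguinal mammary gland from gonadectomized virgin mice, aged 12 to 13 weeks. Removal of the gonads takes away the main source of estrogen in every group, controls included. E2 (17β-estradiol), the main ovarian estrogen, was injected under the skin, and tissue was taken at 6 times, 1, 3 and 6 h later (the early window) or 12, 18 or 24 h later (the late window), with 1 array for each time. The reference was 2 arrays of gonadectomized mice that received vehicle, both titled 24 h, so the earlier E2 times had no vehicle array of their own time. The array titles give these times, whereas every array's description reads 24 h, and the titles were followed. The labels speak of tissue from all mice of a group but not of how it was pooled, and a p-value here measures only the spread between arrays, which may be technical. In the window comparisons that spread also includes change between the times of a window.

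Array medians lay between 173.9 and 180.49 intensity units over the 8 arrays. Of the measured markers, 9 of 9 luminal epithelial, 7 of 7 adipocyte and 7 of 8 myoepithelial lay above the level filter, Krt17 being the exception. All 12 skeletal muscle markers were above it too, as was every measured lymphocyte, macrophage, endothelial and fibroblast marker. Passing the filter therefore does not single out the tissue. In whole tissue, fewer cells of a type and less RNA per cell cannot be told apart.

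Estrogen receptor alpha binds DNA when occupied by hormone, and its ligand-binding domain then exposes a groove that takes up short leucine-rich motifs of coactivators. The p160 coactivators, encoded by Ncoa1, Ncoa2 and Ncoa3, dock there and bring in the lysine acetyltransferases p300 and CBP, encoded by Ep300 and Crebbp, which acetylate histones. Nrip1 encodes RIP140, which also binds the hormone-occupied receptor but mostly represses, through histone deacetylases and CtBP proteins. Ncor1 encodes a corepressor that carries HDAC3 and is known from receptors without agonist or with an antagonist. In human breast cancer cells NRIP1 is itself a well known estrogen-induced gene, so that receptor activity there feeds back on its own coregulator supply.

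RefSeq promoter windows of the GRCm38.p6 build, each running from 250 bases before to 50 bases after an annotated start, are shown for Nrip1 and for Pgr. They are shown because Nrip1 is the coregulator best known as an estrogen target, while Pgr, the progesterone receptor gene, was an estrogen target that rose on these arrays. Nrip1 has a pair of windows, at chr16:76373778-76374077 and chr16:76373000-76373299 on the minus strand, and Pgr has one at chr9:8899583-8899882 on the plus strand. Capitals mark the half-site of the estrogen response element, TGACC or its reverse complement GGTCA.
Nrip1 window 1: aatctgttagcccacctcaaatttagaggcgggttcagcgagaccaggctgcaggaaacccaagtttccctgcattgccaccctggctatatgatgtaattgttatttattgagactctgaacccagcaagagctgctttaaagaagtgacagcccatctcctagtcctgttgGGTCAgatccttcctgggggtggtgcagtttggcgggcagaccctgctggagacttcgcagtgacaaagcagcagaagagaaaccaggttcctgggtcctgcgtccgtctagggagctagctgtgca
Nrip1 window 2: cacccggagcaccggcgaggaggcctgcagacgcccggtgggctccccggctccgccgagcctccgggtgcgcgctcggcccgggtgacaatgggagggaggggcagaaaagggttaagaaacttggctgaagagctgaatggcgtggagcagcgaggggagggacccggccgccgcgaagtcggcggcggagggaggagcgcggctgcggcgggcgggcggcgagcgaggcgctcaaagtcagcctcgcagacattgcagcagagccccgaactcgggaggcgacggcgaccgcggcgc
Pgr window: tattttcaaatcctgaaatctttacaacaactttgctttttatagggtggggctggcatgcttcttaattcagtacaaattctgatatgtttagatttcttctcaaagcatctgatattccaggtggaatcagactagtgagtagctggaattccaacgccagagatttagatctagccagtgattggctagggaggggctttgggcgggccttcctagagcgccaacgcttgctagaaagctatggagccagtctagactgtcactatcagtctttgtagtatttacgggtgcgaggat
The first Nrip1 window held 1 half-site, which began 77 bases before the start site. The second Nrip1 window and the Pgr window held none. The half-site was present on either strand in 40.483% of all 32851 promoter windows of this length. The full palindrome (GGTCA, any 3 bases, then TGACC) was in 23 of those windows, or 0.07%, and in none of the windows of Nrip1, Ncoa1, Ncor1, Ep300, Crebbp, Pgr or Esr1. A match is a description of letters, and a window without one says nothing about the receptor's binding.

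None of the 6 measured coregulator genes passed the test after E2. Not one of the 18 tested probe sets passed an adjusted p of 0.05 in limma at any of the 6 times, in the early window (1, 3 and 6 h together), in the late window (12, 18 and 24 h together) or between the windows. In order of time, from 1 h on, their median log2 differences from vehicle were -0.02, -0.01, -0.06, -0.05, -0.05 and, at 24 h, -0.12. Over all 27022 tested probe sets the medians were 0.01, 0.01, 0.01, 0.01, -0.01 and -0.01 in the same order, and under quantile normalization the last 2 of these were 0.01 and 0.01. Pgr on the same arrays rose by 2.43 at 3 h.

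At an adjusted p below 0.05, the share of all tested probe sets called was 0.0629%, 0.581% and 0.385% for the 1, 3 and 6 h arrays, and 0.0518%, 0.0111% and 0% for the 12, 18 and 24 h arrays. For the early window, late window and late against early comparisons the shares were 0.0037%, 0% and 0.311%. With such small shares, a count of 0 among 18 is close to the background. Before adjustment, p fell below 0.05 in limma for 2, 0 and 0 of the 18 on the 1, 3 and 6 h arrays, for 1, 1 and 2 on the 12, 18 and 24 h arrays, and for 2 in the late window, all of them lower after E2. The early window gave 0, as did late against early. Over all tested probe sets, the unadjusted shares were 3.26%, 5.44% and 7.25% on the 1, 3 and 6 h arrays. They were 3.86%, 5.23% and 7.26% on the 12, 18 and 24 h arrays. For the early window, late window and late against early they were 5.25%, 7.7% and 16.1%.

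Sensitivity to change was limited by the number of arrays. The fit gave 95% intervals of 0.20 to 0.26 log2 units to either side at a single time. Among all probe sets, the smallest difference called in size was 0.85, 0.56 and 0.64 for the 1, 3 and 6 h arrays and 0.99 and 1.29 for the 12 and 18 h arrays, with none called for the 24 h array. Between the windows it was 0.28.

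**Figure D1:**
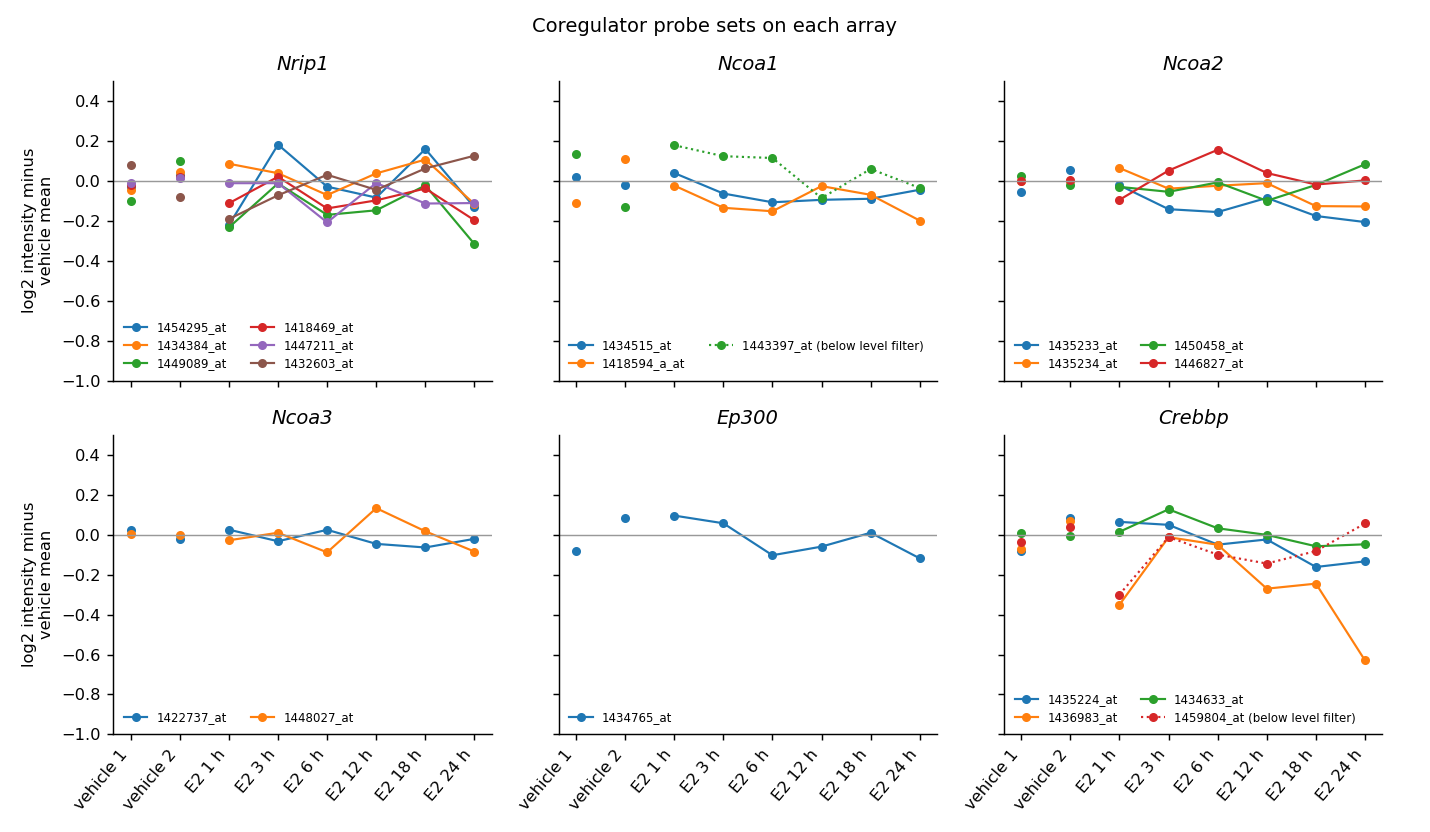
Log2 intensity minus the vehicle mean of each of the 20 coregulator probe sets (vertical axis) on each of the 8 arrays (horizontal axis: both vehicle arrays, then the E2 times from 1 h to 24 h), with a panel for each gene, a colour for each probe set and dotted lines for those below the level filter. The widest departure is the Crebbp probe set 1436983_at, at -0.63 at 24 h.

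Nrip1 was examined first. Its leading probe set, 1454295_at (the one of highest mean), read 10.23 and 10.29 log2 units in the vehicle arrays, then 10.04, 10.45, 10.24, 10.18, 10.42 and 10.13 after E2, in order of time. The 3 h and 18 h arrays were above both vehicle arrays, the 1 h, 12 h and 24 h arrays were below both, and the 6 h array lay between them. The differences were -0.22 at 1 h (95% interval -0.42 to -0.02) and 0.18 at 3 h (-0.02 to 0.38), neither past the adjusted threshold in limma (adjusted p = 1 at both). Averaged by window they were -0.02 in the early window (-0.27 to 0.23) and -0.02 in the late window (-0.27 to 0.23).

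The other Nrip1 probe sets shared that order of times only in part. Probe set 1449089_at read 9.99 and 10.19 in the vehicle arrays and 9.85, 10.07, 9.92, 9.94, 10.06 and 9.77 after E2, with its highest E2 readings at 3 h and 18 h, as in the leading probe set. Those readings lay between its vehicle arrays. Probe set 1434384_at read 10.17 and 10.26 in the vehicle arrays and 10.30, 10.25, 10.15, 10.25, 10.32 and 10.10 after E2, with the 1 h and 18 h arrays above both. At 1 h the probe sets of Nrip1 differed from vehicle by -0.23 to 0.09, at 3 h by -0.07 to 0.18 and at 24 h by -0.32 to 0.13. Their means were -0.11, 0.02 and -0.12. The lowest of these, 1449089_at at 24 h, read 9.77 there against 9.99 and 10.19 in the vehicle arrays, a difference of -0.32 (-0.56 to -0.07; limma adjusted p = 0.64). Probe set 1432603_at stood at the other end at 24 h, with 7.90 against 7.86 and 7.69. Probe set 1418469_at read 9.63 and 9.67 in the vehicle arrays and 9.54, 9.67, 9.52, 9.56, 9.62 and 9.46 after E2. Probe set 1447211_at read 8.15 and 8.17 in the vehicle arrays, stayed at 8.15 at 1, 3 and 12 h, and read 7.95, 8.05 and 8.05 at 6, 18 and 24 h. At 24 h, 1432603_at was thus the only Nrip1 probe set above vehicle, and all the others were below both vehicle arrays. The span between probe sets at that time was 0.44.

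No probe set of the p160 coactivators passed the test. Ncoa1, whose product SRC-1 was the first p160 coactivator described, was read by 1434515_at at 9.79 and 9.75 in the vehicle arrays and at 9.81, 9.70, 9.66, 9.67, 9.68 and 9.72 after E2. Every array of this probe set from 3 h to 24 h was below both vehicle arrays, but the largest difference was -0.11 at 6 h (-0.31 to 0.09; limma adjusted p = 0.89). Its second tested probe set, 1418594_a_at, read 9.23 and 9.45 in the vehicle arrays and 9.32, 9.21, 9.19, 9.32, 9.27 and 9.14 after E2. The vehicle arrays were far apart on it, and only the 3, 6 and 24 h arrays lay outside them, below both. Its remaining probe set, 1443397_at, was under the level filter, at 5.33 to 5.64 log2 units.

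Ncoa2, which encodes GRIP1 (also called TIF2), was read by 4 probe sets. Probe set 1435233_at read 10.13 and 10.25 in the vehicle arrays and 10.17, 10.05, 10.03, 10.10, 10.01 and 9.98 after E2. All 5 arrays from 3 h on were below both vehicle arrays, whereas the 1 h array lay between them. The late window differed by -0.16 (-0.30 to -0.01; limma adjusted p = 0.63) and 24 h by -0.21 (-0.42 to 0.01; limma adjusted p = 0.69). Probe set 1435234_at read 8.66 on both vehicle arrays and 8.72, 8.62, 8.63, 8.64, 8.53 and 8.53 after E2, also below both from 3 h on. Probe set 1450458_at read 8.36 at 24 h, above the 8.30 and 8.25 of the vehicle arrays, and 1446827_at read 7.24 at 6 h, above 7.08 and 7.09. Probe sets of Ncoa2 therefore differed in direction: at 24 h the 4 differences ran from -0.21 to 0.08, and at 6 h from -0.16 to 0.16.

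Ncoa3, which encodes AIB1 and is amplified in some human breast cancers, had the narrowest span of the 18 probe sets in 1 of its 2. That probe set, 1422737_at, read 8.66 and 8.61 in the vehicle arrays and 8.66, 8.60, 8.66, 8.59, 8.57 and 8.61 after E2. The whole span was 0.09 log2 units, or 1.06-fold, and 1.51% of all tested probe sets had a smaller one. The late window difference was -0.04 (-0.16 to 0.07). The second probe set, 1448027_at, spanned 0.22, and read 8.48 at 12 h, above the 8.35 of each vehicle array, and 8.26 at 6 h and 8.27 at 24 h, below them.

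In the reported fit, neither acetyltransferase gene passed the test, and the largest difference was on a single Crebbp probe set. Ep300 was read by 1 probe set, 1434765_at, at 10.17 and 10.34 in the vehicle arrays and at 10.35, 10.31, 10.15, 10.19, 10.26 and 10.13 after E2. The 1 h array was above both vehicle arrays, the 6 h and 24 h arrays were below both, and 3 lay between. Its largest difference was -0.12 at 24 h (-0.35 to 0.11; limma adjusted p = 0.77).

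Crebbp, the gene of CBP, was read at 9.73 and 9.87 in the vehicle arrays by probe set 1436983_at, and at 9.45, 9.79, 9.75, 9.53, 9.55 and 9.17 after E2. The arrays at 1, 12, 18 and 24 h were below both vehicle arrays, and those at 3 and 6 h lay between them. At 24 h the difference was -0.63 (-0.85 to -0.41; limma adjusted p = 0.23), and against the vehicle arrays taken singly it was -0.56 and -0.70. At 1 h it was -0.35 (-0.57 to -0.13; limma adjusted p = 0.88), and in the late window -0.38 (-0.66 to -0.10; limma adjusted p = 0.63). With every array centred on its median, this probe set alone among the 18 passed the threshold at 24 h, at -0.66 (limma adjusted p = 5.598e-05). That setting called 539 probe sets over the whole table at 24 h, where the reported fit called 0, and its prior degrees of freedom were infinite. Over all alternatives the smallest adjusted p among the 18 at 24 h lay between that value and 0.72.

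The other Crebbp probe sets did not show a difference of that size at 24 h. The other tested ones were also below both vehicle arrays at 18 h and 24 h, by smaller amounts. Probe set 1435224_at, of the highest mean, read 9.99 and 10.15 in the vehicle arrays and 10.14, 10.12, 10.02, 10.05, 9.91 and 9.94 after E2. It differed by -0.13 at 24 h (-0.36 to 0.10) and by 0.06 at 1 h (-0.17 to 0.30). Probe set 1434633_at read 8.96 and 8.94 in the vehicle arrays and 8.97, 9.08, 8.98, 8.95, 8.89 and 8.90 after E2, a difference of -0.05 at 24 h (-0.25 to 0.16). The 3 tested probe sets of Crebbp therefore spanned 0.58 at 24 h and 0.42 at 1 h, against 0.08 at 6 h. The untested one, 1459804_at, was under the level filter at 5.45 to 5.81 log2 units. It differed from vehicle by -0.30 at 1 h, -0.14 at 12 h and 0.06 at 24 h.

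**Figure D2:**
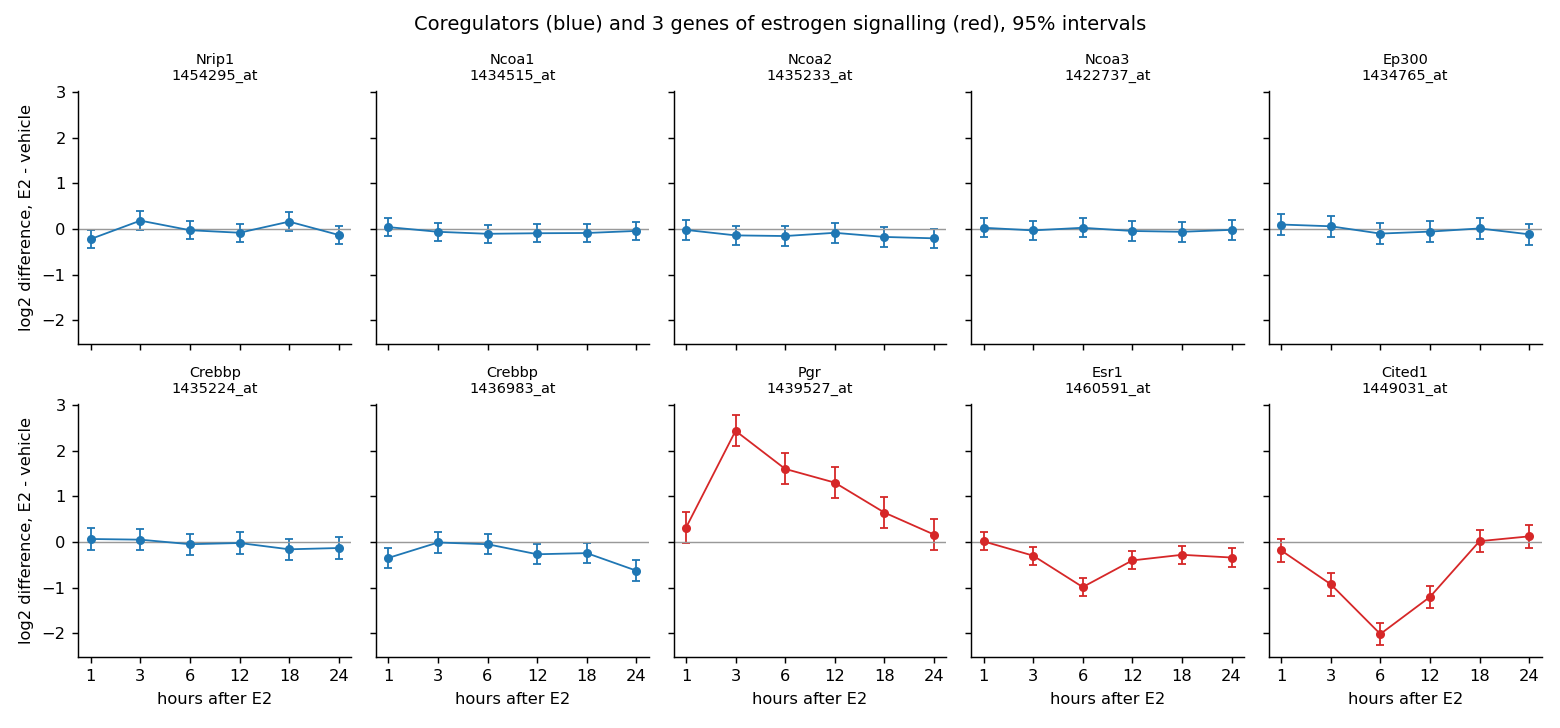
Log2 difference from the vehicle mean at each E2 time (hours, evenly spaced) for each gene's leading probe set and Crebbp 1436983_at (blue), and for Pgr, Esr1 and Cited1 (red), with 95% intervals from the limma fit. The coregulators stay near 0, with Crebbp 1436983_at farthest from it at -0.63 at 24 h, while Pgr reaches 2.43 at 3 h and Cited1 -2.02 at 6 h.

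The coregulator probe sets were then counted by their place relative to both vehicle arrays, without a test. The 18 belong to 6 genes, so they are not independent of each other. From 1 h to 24 h in order, 6, 5, 3, 2, 3 and 2 of the 18 were above both. The shares of all tested probe sets above both were 35.1%, 32.7%, 36.7%, 33.5%, 31% and 32.1%. Below both were 8, 6, 10, 9, 10 and 14 of the 18 at the same times, against background shares of 27.2%, 29%, 31.8%, 27.7%, 38.6% and 42.5%. The 24 h array thus had most coregulator probe sets below both vehicle arrays, on an array where the background share below was also the highest of the 6. Under quantile normalization the count below both at 24 h was 12 of 18 against 35%, equal to the 12 at 6 h, and with median centring it was 15 against 49%. Counted by each gene's leading probe set, 5 of 6 were below both at 24 h in the reported scaling. Quantile normalization left 3 of these 6 below both, and median centring 6. The background share above both at 24 h was 39.1% under quantile normalization, more than the share below. At 1 h quantile normalization left 2 of the 18 above both, against 30.7%.

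Few departures were large. A gap of 1.2-fold or more to each vehicle array, on the same side, was seen for 1 of the 18 at 1 h and 1 at 24 h, in each case Crebbp 1436983_at, which was lower. There was none at 3, 6, 12 or 18 h. The background shares for this rule were 1.54%, 3%, 3.35%, 1.6%, 1.78% and 2.55% over the 6 times. In the early window 1 of the 18 had all 3 arrays above both vehicle arrays, Crebbp 1434633_at, against 11.7% of all tested probe sets, and 0 had all 3 below, against 7.36%. In the late window 0 had all 3 above, against 11.3%. All 3 late arrays were below both vehicle arrays for 5 of the 18, against 13.2%: Nrip1 1418469_at, Ncoa1 1434515_at, Ncoa2 1435233_at and 1435234_at, and Crebbp 1436983_at.

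Markers of several cell types also differed between these arrays. Skeletal muscle markers (12 of 12 measured) had mean log2 differences from vehicle of 0.63, 0.54, 1.43, 0.22, 0.66 and 1.17 in order of time, with all 12 above both vehicle arrays at 6 h and 24 h. The vehicle arrays themselves differed by 0.44 in this mean. B lymphocyte markers (6 measured) had means of 0.13, 0.14, -0.16, 0.15, -0.45 and -0.44, and T lymphocyte markers (6 measured) 0.05, 0.05, -0.10, 0.05, -0.34 and -0.26. All 6 of each kind were below both vehicle arrays at 18 h and 24 h. Between the vehicle arrays, first minus second, the B and T lymphocyte means differed by -0.31 and -0.22. None of these muscle and lymphocyte markers was below the level filter. Luminal epithelial markers (9 measured) had means of -0.15, -0.55, -0.24, 0.34, 0.26 and 0.18. Of these 9, 6 were below both vehicle arrays and 3 above at 3 h, and 2 were below and 6 above at 12 h. Myoepithelial markers (7 above the filter) had means of 0.21, 0.21, 0.17, 0.21, 0.18 and 0.11, with all 7 above both at 12 h. With the muscle mean as a covariate, the late window differences of the leading probe sets were 0.02 for Nrip1 (without it, -0.02), -0.07 for Ncoa1 (-0.08), -0.08 for Ncoa2 (-0.16), -0.07 for Ncoa3 (-0.04), 0.06 for Ep300 (-0.06) and -0.01 for Crebbp (-0.11). No coregulator was called in the window fits in either case. The part of lymphocytes and epithelial cells in the readings, and that of muscle at single times, was not tested.

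The span over all 8 arrays, the highest minus the lowest reading whatever the group, had a median of 0.22 log2 units (1.17-fold) over the 18 coregulator probe sets. It was 0.24 (1.18-fold) over all tested probe sets, of which the 10th to 90th percentiles were 0.14 and 0.44. None of the 18 reached a span of 1, as 0.76% of all tested probe sets did. After Crebbp 1436983_at, at 0.70 (1.62-fold, wider than 97.7% of tested probe sets), came Nrip1 1449089_at at 0.42 and Nrip1 1454295_at at 0.40.

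**Figure D3:**
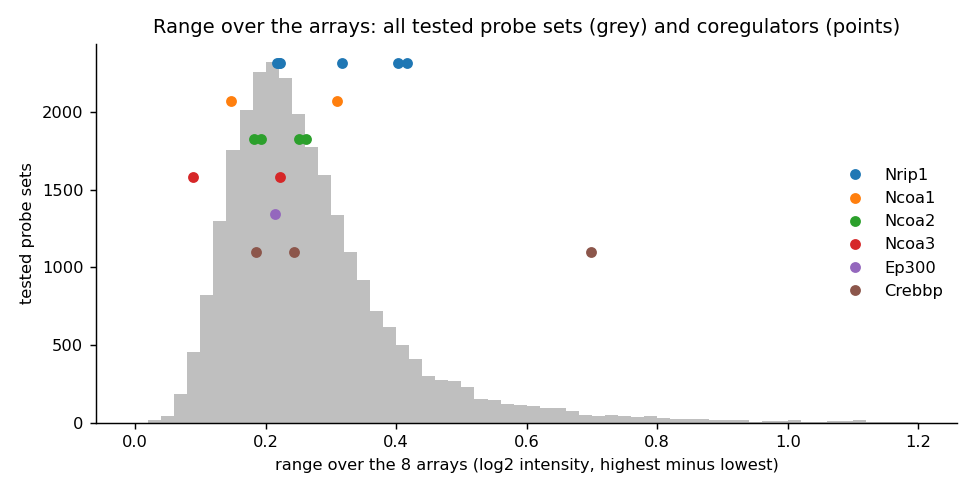
Histogram of the span over 8 arrays (highest minus lowest log2 reading) for all 27022 tested probe sets, with the 18 coregulator probe sets marked by gene. The axis ends at 1.2, beyond which lie 118 probe sets, and the height of a mark has no meaning. The coregulators sit around the bulk of the histogram, with Crebbp 1436983_at at 0.70 to the right.

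The receptor with which these proteins work, and its best known target, did change. Pgr read 8.16 and 8.51 log2 units in the vehicle arrays and 8.64, 10.77, 9.94, 9.63, 8.98 and 8.50 after E2. It rose at 3 h by 2.43 (2.10 to 2.77; limma adjusted p = 0.0016) and at 6 h by 1.60 (1.26 to 1.94; limma adjusted p = 0.0098). Esr1, the gene of estrogen receptor alpha, read 10.60 and 10.56 in the vehicle arrays and 10.59, 10.28, 9.59, 10.17, 10.30 and 10.24 after E2. It fell at 6 h by 0.99 on the log2 scale (limma adjusted p = 0.0079). At that time 0 of the 18 were past the 1.2-fold gap, against 3.35% of all tested probe sets, so that count is close to the background. On the list of estrogen targets, 18 of 20 were tested, and besides Pgr only Gadd45g, a stress-inducible growth arrest gene, passed against vehicle, rising by 1.63 at 1 h and 1.19 at 3 h (limma adjusted p = 0.010 at both). Fos and Gadd45g fell between the windows, late minus early, by 0.82 and 1.11 on the log2 scale (limma adjusted p = 0.017 and 0.042). Of 6 tested receptor genes, Pgr and Esr1 alone passed, at the times given. Among those that did not pass, Gper1 differed by 0.26 at 12 h and -0.21 at 6 h, and Esrrg by 0.12 at 24 h and -0.18 at 1 h. Fos, which passed only between the windows, differed from vehicle by 0.66 at 3 h and -0.45 at 18 h. Stc2 differed by 0.46 at 12 h and -0.29 at 3 h, and Myb by 0.36 at 6 h and -0.23 at 24 h. The list of targets was chosen with earlier results of these data known. Greb1, another estrogen target, differed by 0.16 at 3 h (-0.12 to 0.45; limma adjusted p = 1).

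By the root mean square gap over the 6 time differences, the genes closest to the leading Nrip1 probe set were Abl2 (0.06), Tns1 (0.06), Zfp945 (0.07), Med1 (0.07, by probe set 1421906_at) and Ube2b (0.08). Those genes were picked for this likeness among all tested probe sets with 1 gene name, so it is a description. Like the leading Nrip1 probe set, all 5 were lower at 1 h and higher at 3 h, by -0.13 to -0.23 and 0.06 to 0.17. The other Nrip1 probe sets shared that pattern only in part.

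In the wider list of coactivators, which was chosen with earlier results of these data known, a single gene passed the test. Cited1, a p300 and CBP binding protein that works as an estrogen receptor coactivator, read 9.22 and 9.05 in the vehicle arrays and 8.95, 8.20, 7.11, 7.93, 9.15 and 9.25 after E2. It fell by 0.93 at 3 h, by 2.02 at 6 h and by 1.21 at 12 h on the log2 scale (limma adjusted p = 0.016, 0.0016 and 0.022). At 18 and 24 h it differed by 0.02 and 0.12. None of the other 35 tested coactivators passed in either direction at any time or in any window.

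Among those 35, the highest single-time values were at 3 h. Trim24 differed by 0.41 (0.20 to 0.62; limma adjusted p = 0.16), Pprc1 by 0.41 (0.18 to 0.64; limma adjusted p = 0.22) and Ppargc1b by 0.23. On the low side were Med1, a Mediator subunit that contacts nuclear receptors, at -0.44 at 1 h (-0.65 to -0.24; limma adjusted p = 0.36), and Cited2 at -0.43 at 3 h (-0.84 to -0.03). By another of its probe sets, 1421906_at, Med1 differed by -0.15 at 1 h. The coactivators Ncoa6, Carm1 (an arginine methyltransferase of the p160 complex) and Kat2b (an acetyltransferase) stayed within 0.14, 0.20 and 0.12 of vehicle at every time. Ppargc1a was under the level filter.

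No corepressor passed the test among 26 tested of 29 listed. Tle3, a Groucho-type corepressor, differed by 0.28 at 3 h (0.07 to 0.50; limma adjusted p = 0.53) and by -0.22 at 18 h. The deacetylase genes Hdac7 and Hdac1 differed by 0.21 at 3 h and 0.20 at 6 h, and Hdac3 by no more than 0.10 at any time. Rcor1, of the CoREST complex, differed by -0.26 at 24 h (-0.47 to -0.04; limma adjusted p = 0.67), and Ctbp2, which RIP140 binds, by -0.23 at 3 h.

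Both wider lists sat low at 24 h, as the 18 probe sets did, and also at 18 h. At 24 h their median differences, by the leading probe set of each gene, were -0.11 for coactivators and -0.09 for corepressors. Below both vehicle arrays were 28 of 36 and 19 of 26, against the 42.5% of all tested probe sets. At 18 h the medians were -0.09 and -0.06, with 22 of 36 and 20 of 26 below both, against 38.6%. These list values are from the reported scaling only. At 1 h and 3 h their medians were 0.03 and 0.01 for each list.

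**Figure D4:**
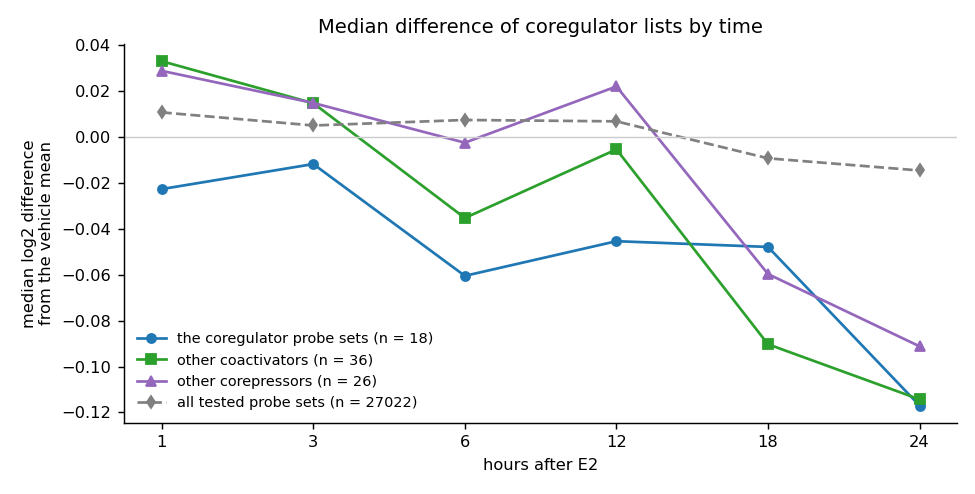
Median log2 difference from vehicle at each E2 time for the 18 coregulator probe sets, the wider lists of coactivators and corepressors, and all tested probe sets. The coregulator median is -0.12 at 24 h, the coactivator and corepressor medians are -0.11 and -0.09, and that of all tested probe sets is -0.01.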

How the data were processed

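Affymetrix arrays of 8 samples were read as the deposited value table of the series. Its values are intensities on a linear scale, from 13.8 to 23591, which the authors had already normalized: GCOS 1.0 and RMA are listed, per the submitters' processing notes, with no roles given, and other steps are not given in the sources used here. Log2 of each deposited intensity was taken, with no further scaling. Of 45101 probe sets, 64 controls were left out; 34945 had 1 gene symbol in the platform annotation, 932 several and 9160 none, and 34741 matched RefSeq (GRCm38.p6) by Entrez ID. The 27022 probe sets whose mean was at or above the 40th percentile (log2 6.97, an intensity of 125) were tested.

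limma 3.58.1 in R 4.3.3 was fitted to all of them, with lmFit and eBayes with a mean-variance trend. For single times the model had 7 means, leaving 1 residual degree of freedom from the vehicle pair, and each lone E2 array was assumed to vary as that pair does. Windows used 3 means and 5 residual degrees of freedom. Arrays of different times share a window, so change over time within a window counts as spread and can hide a brief response. Adjustment was by Benjamini-Hochberg over all tested probe sets. The number of arrays limits the precision.

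Genes are named by rule: all probe sets of the 7 coregulators, up to 3 higher and 3 lower genes of each wider list by largest single-time difference outside both vehicle arrays, some genes fixed by name, and 5 genes most like Nrip1. The members and lists were chosen with earlier results of these data known. Alternatives were the filter, the scaling, 1 value per gene, the empirical Bayes settings, array weights, a muscle covariate, grouped times and leaving out each array. The dose is not stated, since the labels give it in conflicting units.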

Additional observations from a re-analysis of the deposited data

How the results depend on the processing

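The count of coregulator probe sets called was 0 in all 9 comparisons and stayed 0 under every alternative with a test except one. With arrays centred on their medians, 1 probe set was called at 24 h, Crebbp 1436983_at (log2 difference -0.66, limma adjusted p = 5.598e-05); over the alternatives the smallest adjusted p at 24 h ran from 5.598e-05 to 0.72. The medians that centring equalized, over all probe sets, differed by 0.05 between the vehicle arrays, whereas over the tested probe sets the median difference between them was 0.0027 before centring. limma's prior degrees of freedom became infinite, against 6.27 in the reported fit. By the rule with no test, at least 1.2-fold from both vehicle arrays, 1 probe set was counted at 1 h and 1 at 24 h. Leaving out each array in turn gave counts of 0 to 0. With 1 vehicle array left out, single times have no residual degrees of freedom and are values with no test. No coregulator value was past the threshold in the reported fit, so none could be seen to turn. Of 888 values of leading coregulator probe sets under alternatives, none past the threshold, 54 had the opposite sign to the reported value. These fell on 25 of the 54 reported values for leading probe sets, so direction was often unstable. Those 25 reported values were at most 0.133 in size. Quantile normalization turned the median over all tested probe sets at 18 and 24 h, from -0.01 at each to 0.01 at each. No paired analysis was possible because only the vehicle arrays carry replicate numbers and each E2 time has 1 array.

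Counts over all tested probe sets moved more. They ran from 7 (1 probe set per gene) to 218 (median centring) at 1 h around a reported 17, from 65 to 564 at 3 h around 157, and from 40 to 608 at 6 h around 104. At 12, 18 and 24 h they ran from 4 to 208, 0 to 304 and 0 to 539, around 14, 3 and 0. The early window gave 0 to 130 around 1, with 130, 5 and 23 when the 1, 3 or 6 h array was left out, 2 without the 18 h array and 0 without either vehicle array. The late window gave 0 throughout by limma, with 2080 at an unadjusted p below 0.05. Late against early gave 1 to 2564 (array weights) around 84, with 403, 9, 126, 3, 1 and 4 when the E2 arrays were left out in order of time, and 42 without either vehicle array.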
